A study of Mus musculus with 12 samples.

Results

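Ighj1 rearrangements are heavy chain transcripts in which the VDJ exon was completed with Ighj1, one of the 4 functional joining segments of the mouse heavy chain locus. They were chosen as unique translations without a stop codon that held the end of VH framework 3 (a pair of tyrosine or phenylalanine residues and then the conserved cysteine, ending at residues 16 to 30) and after it the framework 4 motif WGAGTTV or WGTGTTV. By this rule 49156 of the 543334 unique translations with any J motif over 12 libraries were Ighj1 rearrangements (9.05%), and they accounted for 182627 of 1667197 reads. They held 20834 distinct CDR3s, where CDR3 is the stretch between the conserved cysteine and the tryptophan of the motif, without these anchor residues.

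The B cells came from the spleens of 12 female MRL/lpr mice, an SLE-prone strain homozygous for the Fas lpr mutation, at 14 weeks of age. Of these mice, 6 had received control SMO (replicates 3, 4, 5, 7, 8 and 9) and 6 had received LFPRLR SMO (replicates 3 to 8), a splice-modulating oligomer against the long form of the prolactin receptor (LFPRLR), both from implanted pumps. The comparison asks whether the antibody repertoire of these mice differed with the treatment. Heavy chain transcripts were amplified between the J558 VH family and the Cμ constant region, so that transcripts of other VH families and switched isotypes were not measured. All mice carry the same lpr mutation and no untreated or wild-type mice were part of the series. The B cells were enriched by magnetic sorting, and since the libraries hold immunoglobulin amplicons no cell marker could be checked in them.

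A J segment is joined to a D segment in the pro-B cell, and its first codons become the end of CDR3 while the rest encodes framework 4. During joining the segment end is trimmed by a few bases and nucleotides are added at random, and the number of germline J residues left in CDR3 therefore records how far the end was cut back. Untrimmed Ighj1 adds the residues YWYFDV to CDR3, rich in aromatic residues and with an acidic aspartate, whereas Ighj2, Ighj3 and Ighj4 add YFDY, AWFAY and YYAMDY. CDR3 of the heavy chain lies at the centre of the antigen-binding site, and arginine in it is known from DNA-binding autoantibodies of lupus-prone mice.

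The sequence below shows the commonest end of the Ighj1 transcripts in the deposited reads, with the bases of the framework 4 motif in capitals and the CDR3 part of the segment ahead of it. The part from the first capital on occurred exactly so in 59231 unique nucleotide sequences. The 19 bases ahead of it are the commonest base at each position, and most sequences did not carry all of them. The next pair shows the motif in its alanine and threonine forms, with the codon that differs in capitals; the commonest spelling of each was found in 61148 and 409 unique nucleotide sequences. The last pair shows a minor Ighj1 end and the commonest Ighj3 end, with the shared bases in capitals that follow the motif. The minor end was found in 547 unique nucleotide sequences and the Ighj3 end in 182541.
Ighj1 end: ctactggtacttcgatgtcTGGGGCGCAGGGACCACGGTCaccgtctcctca
Ighj1 motif, alanine form: tggggcGCAgggaccacggtc
Ighj1 motif, threonine form: tggggcACAgggaccacggtc
Ighj1 motif with the minor end: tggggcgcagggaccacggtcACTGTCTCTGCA
Ighj3 motif and end: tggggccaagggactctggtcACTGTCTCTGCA

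The 11 libraries other than LFPRLR SMO replicate 6 held between 130635 and 227202 reads and between 2726 and 6257 Ighj1 translations. LFPRLR SMO replicate 6 held 627 reads, 493 translations with a J motif and 65 Ighj1 translations, and its values stand on these few sequences. Of the 50 commonest Ighj1 CDR3s of a library, 33 were shared between control SMO replicates 5 and 7, 33 between control SMO replicates 4 and 8, 22 between LFPRLR SMO replicates 4 and 5 and 18 between LFPRLR SMO replicates 3 and 4. Of the 56 Ighj1 CDR3s of LFPRLR SMO replicate 6, 87.5% occurred in another library and 66.1% in a library of the opposite treatment group. In the other libraries these shares ranged from 12.4% to 56.9% and from 8.74% to 21.2%. A second version of the Cμ end was carried by 33.2% to 40.1% of sequences in 6 libraries (control SMO replicates 4, 7 and 9 and LFPRLR SMO replicates 3, 4 and 7) and by 0.118% to 2.26% in the other 6. No molecular identifiers are described, so reads and unique sequences are not independent molecules, and intervals below cover counting error only. The p-values measure the spread between libraries, which the labels list as separate samples, and whether the libraries that share CDR3s come from separate mice could not be checked.

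Ighj1 was the least used of the J segments in unique translations, and its share did not separate the groups. In control SMO replicates 3, 4, 5, 7, 8 and 9, Ighj1 made up 8.77%, 9.37%, 9.69%, 9.35%, 8.75% and 9.29% of the unique translations. The shares in LFPRLR SMO replicates 3 to 8 were 9.53%, 8.48%, 8.19%, 13.2%, 9.22% and 8.73%. The shares of both groups overlapped throughout, and only LFPRLR SMO replicate 6 lay far from the others, with a 95% Wilson interval of 10.5% to 16.5% against intervals between 7.90% and 10.04% elsewhere. The medians were 9.32% (SD 0.373, n = 6) in control SMO and 8.97% (SD 1.84, n = 6) in LFPRLR SMO, a difference of -0.348 percentage points (two-sided exact Mann–Whitney U test, p = 0.485, Benjamini-Hochberg adjusted p = 0.684). For comparison, the control SMO medians of Ighj2, Ighj3 and Ighj4 were 33.03%, 28.5% and 29.8%. Over the 12 libraries the share of Ighj2 followed that of Ighj1 most closely (Spearman rho = 0.462, a description over shares that sum to a fixed total). By reads rho was -0.301 for Ighj2, and it was negative for Ighj3 and Ighj4 too.

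Counted by reads, the Ighj1 share varied more between libraries, and the groups did not separate. Ighj1 held 8.67%, 12.9%, 18.2%, 14.8%, 12.2% and 10.1% of the reads in control SMO replicates 3, 4, 5, 7, 8 and 9. The corresponding shares of LFPRLR SMO replicates 3 to 8 were 10.9%, 7.72%, 7.22%, 13.8%, 8.84% and 9.18%. Control SMO replicates 4, 5 and 7 and LFPRLR SMO replicate 6 were the highest, and control SMO replicates 3 and 9 lay among the other LFPRLR SMO libraries. The median was 12.6% in control SMO and 9.01% in LFPRLR SMO (exact Mann–Whitney p = 0.132, adjusted p = 0.571). With the 10 commonest CDR3s of each library left out, whatever their J segment, the difference was 0.151 percentage points (exact p = 0.699). It was -2.15 (exact p = 0.556) with sharing pairs averaged (control SMO replicates 5 and 7, control SMO replicates 4 and 8, LFPRLR SMO replicates 4 and 5) and -1.55 (exact p = 0.0649) without the commonest Ighj1 CDR3 of each library, against -3.54 with all reads.

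**Figure D1:**
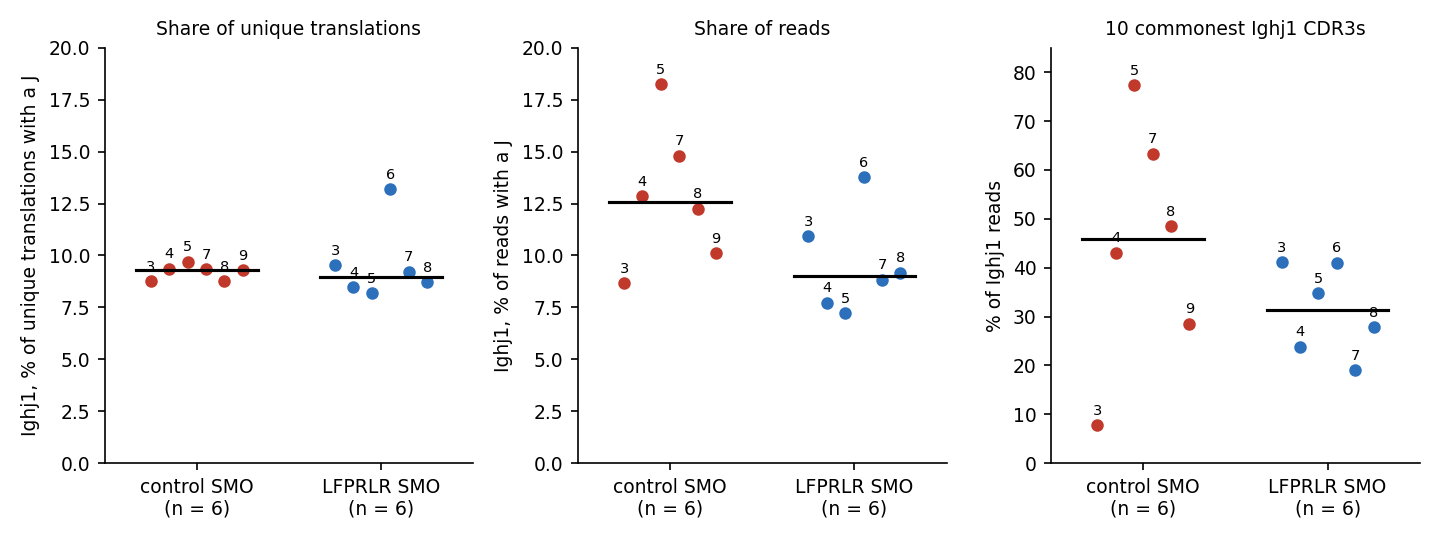
Ighj1 share of unique translations with a J motif (left), Ighj1 share of reads with a J motif (middle) and share of Ighj1 reads in the 10 commonest Ighj1 CDR3s (right), all in percent, with 1 numbered point per library (replicate number) and a bar at the group median. By unique translations every library except LFPRLR SMO replicate 6 (13.2%) lies between 8.19% and 9.69%, whereas by reads control SMO libraries spread from 8.67% to 18.2%.

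How far the reads of Ighj1 were concentrated in few CDR3s varied widely between libraries. Of the Ighj1 reads of control SMO replicates 3, 4, 5, 7, 8 and 9, the 10 commonest Ighj1 CDR3s held 7.75%, 43.1%, 77.4%, 63.3%, 48.5% and 28.5%. LFPRLR SMO replicates 3 to 8 had 41.1%, 23.8%, 34.8%, 41.03%, 18.997% and 27.8% of their Ighj1 reads in the 10 commonest. Control SMO replicates 4, 5, 7 and 8 were above all LFPRLR SMO libraries, and control SMO replicate 3 was below all of them. The medians were 45.8% and 31.3% (exact p = 0.180, adjusted p = 0.571). Without control SMO replicate 3 the difference was -17.2 percentage points with an unadjusted exact p of 0.0303, and with the same 3 pairs of libraries averaged it was -7.84 percentage points (exact p = 0.730). Ighj1 had 2.61 to 8.60 reads per unique translation in control SMO libraries, while translations with other J segments had 2.52 to 4.14. In LFPRLR SMO libraries the ranges were 1.2 to 3.94 with Ighj1 and 1.14 to 4.52 with the others. Ighj2, Ighj3 and Ighj4 each had more translations than Ighj1, which can lower the share of their 10 commonest CDR3s. Those held control SMO medians of 17.3%, 12.7% and 15.4% of the reads of their segment. The LFPRLR SMO medians were 20.8%, 22.5% and 17.3%.

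The Ighj1 CDR3s named here come from the commonest CDR3s of each library and those with the highest mean share of Ighj1 reads over the 12 libraries. Bases are given to show how many J codons were left. They are the commonest nucleotide version of each CDR3 in the library with most of its reads. That version held 66.2% of the reads of ASGGSRYWYFDV there, 93.3% of those of AIWLLLV and at least 96.2% for the others printed. Capitals mark the codons of the kept J residues, and single bases ahead of them can also match Ighj1.
AIWLLLV: gctatatggttactacttGTC
TINGYWYFDV: acaataaatggtTACTGGTACTTCGATGTC
ARWAYYSNWYFDV: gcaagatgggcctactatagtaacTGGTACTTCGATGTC
ARKKLRSYWYFDV: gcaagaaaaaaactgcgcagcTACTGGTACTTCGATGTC
ASGGSRYWYFDV: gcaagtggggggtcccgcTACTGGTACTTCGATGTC
ARYYSNYWYFDV: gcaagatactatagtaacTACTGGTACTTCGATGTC
ARGGYYVDV: gcaagagggggttactacgtcGATGTC
APNFDV: gccccaaacTTCGATGTC

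AIWLLLV, a CDR3 of 7 residues that kept a single residue of Ighj1 and carries no charge, was the commonest in control SMO replicates 5 and 7 and tied for the commonest in LFPRLR SMO replicate 6. It held 43.9% of the Ighj1 reads of control SMO replicate 5 (10547 reads in 418 unique translations), 31.3% of replicate 7 (6750 reads) and 11.5% of LFPRLR SMO replicate 6 (9 reads). In control SMO replicate 4 it held 4.59% (772 reads), and in the remaining 8 libraries at most 0.616%. TINGYWYFDV, with all 6 J residues kept, followed the same libraries, with 17.1% in control SMO replicate 5, 15.9% in replicate 7, 2.47% in replicate 4 and 3.85% in LFPRLR SMO replicate 6. Control SMO replicates 5 and 7, in which both CDR3s were abundant, are a pair that also shared most of its commonest CDR3s.

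In the LFPRLR SMO group the commonest CDR3 differed from library to library. ARWAYYSNWYFDV held 26.7% of the Ighj1 reads of replicate 3 (4177 reads), 2.13% of replicate 7 and at most 0.226% elsewhere. ARKKLRSYWYFDV, which contains 4 basic residues and had a net charge of 3, held 9.77% of replicate 5 and 2.73% of replicate 4. APNFDV, a CDR3 of 6 residues with 3 from Ighj1, held 4.48% of replicate 4 and 2.92% of replicate 3. In replicate 7 the commonest was a CDR3 of 20 residues with 5 J residues kept (6.90%), and in replicate 8 it was ARGGYYVDV with 2 J residues kept (7.84%). ASGGSRYWYFDV was the commonest in control SMO replicate 9 (11.2%) and ARYYSNYWYFDV in control SMO replicate 3 (1.42%). The commonest Ighj1 CDR3 of a library thus ranged from 1.42% to 43.9% of its Ighj1 reads in control SMO and from 4.48% to 26.7% in LFPRLR SMO.

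CDR3s with Ighj1 were longer than those with other J segments in the same library. The mean length was 12.02 residues with Ighj1 and 10.97 with the other J segments pooled, a mean difference of 1.05 residues (SD 0.446, n = 12 libraries). It was positive in 11 of 12 libraries (two-sided exact sign-flip permutation test, p = 0.000977), and the exception was control SMO replicate 5, with -0.0236. Against Ighj2 the difference was 1.76 residues and against Ighj3 1.31 residues, each positive in 12 of 12 libraries (exact p = 0.000488, the smallest possible). Against Ighj4, whose CDR3 part has as many residues as that of Ighj1, the difference was 0.0108 residues (SD 0.466, n = 12, exact p = 0.941). Ahead of the kept J residues, Ighj1 CDR3s were shorter by a mean of 0.228 residues, since they had 7.44 residues there against 7.67 in the pooled others (exact p = 0.00195, adjusted p = 0.00260). By this count the residues that Ighj1 CDR3s had beyond the pooled others lay within the kept J part. Against Ighj4 alone the difference ahead of the kept part was -0.165 residues (exact sign-flip p = 0.0469, adjusted p = 0.0536). There Ighj1 was longer in 4 of 12 libraries. Against Ighj2 and Ighj3 the differences were -0.252 and -0.270 residues.

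Treatment groups did not differ detectably in Ighj1 CDR3 length. Control SMO replicates 3, 4, 5, 7, 8 and 9 had mean lengths of 12.7, 12.0015, 10.99, 11.3, 12.4 and 12.1 residues. LFPRLR SMO replicates 3 to 8 had means of 12.05, 11.98, 12.3, 11.3, 12.5 and 12.6 residues. Libraries of both groups were found at the high and the low end. Medians were 12.1 (SD 0.667) and 12.2 (SD 0.455) residues, a difference of 0.0963 (exact p = 0.699, adjusted p = 0.799) whose sign turned under several settings. Ighj1 CDR3s were 2 to 24 residues long, and 12 residues was the commonest length in both groups (median 18.1% of unique translations in control SMO and 15.6% in LFPRLR SMO). CDR3s of 7 residues reached 16.5% of the translations of a control SMO library and 12.3% of LFPRLR SMO replicate 6, against medians of 3.02% and 1.82%. Of the 13 lengths from 6 to 18 residues, 0 had an exact p under 0.05 in Ighj1, where 0.00% of 52 tests over all J segments did, and the smallest was for 7 residues (exact p = 0.132). After adjustment 0.00% of these 52 tests passed.

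**Figure D2:**
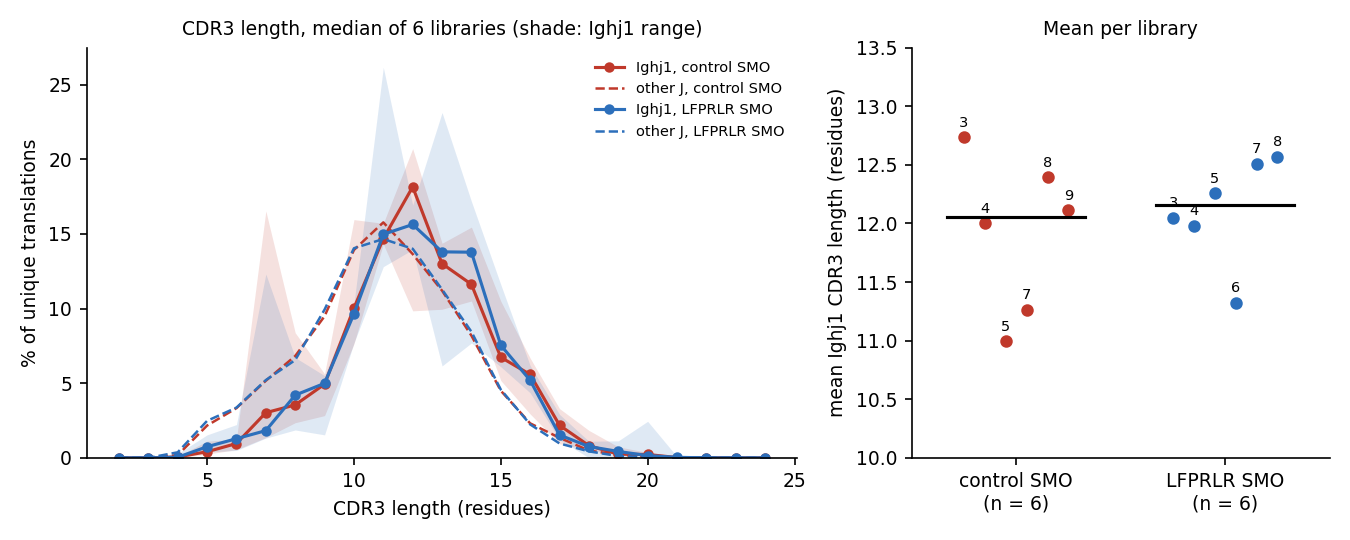
Percent of unique translations at each CDR3 length in residues (left; solid lines, median of 6 libraries for Ighj1 with its range shaded; dashed lines, median for the other J segments) and the mean Ighj1 CDR3 length of each library (right; numbers are replicates, bars medians). The solid lines of both groups peak at 12 residues and lie to the right of the dashed lines; control SMO replicates 5 and 7 and LFPRLR SMO replicate 6 have the shortest means (10.99 to 11.3 residues).

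Most Ighj1 rearrangements had lost little of the segment's CDR3 part. All 6 residues were kept in a median of 27.9% of unique translations in control SMO and 29.3% in LFPRLR SMO (exact p = 1). Loss of the first residue only was the commonest outcome, with 5 residues kept in 34.8% and 35.4%, and 4 residues were kept in 21.8% and 22.5%. Fewer residues were rare. Medians for 3, 2, 1 and 0 kept residues were 3.96%, 2.16%, 3.03% and 3.44% in control SMO and 4.24%, 1.96%, 2.03% and 2.81% in LFPRLR SMO. The class with 1 kept residue, to which AIWLLLV belongs, reached 17.1% in a control SMO library and 12.3% in LFPRLR SMO replicate 6. Of the 7 classes 0 had an exact p under 0.05 in Ighj1, against 8% of 25 tests over the classes of all J segments and 0.00% after adjustment.

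Control SMO replicates 3, 4, 5, 7, 8 and 9 kept means of 4.78, 4.57, 4.12, 4.37, 4.66 and 4.67 residues. Means for LFPRLR SMO replicates 3 to 8 were 4.68, 4.64, 4.74, 4.37, 4.64 and 4.68. Control SMO replicates 5 and 7 and LFPRLR SMO replicate 6 were lowest, the libraries in which AIWLLLV held 11.5% or more of the Ighj1 reads, and the remaining libraries of both groups overlapped. Medians were 4.62 (SD 0.240) and 4.66 (SD 0.130), a difference of 0.0455 residues (exact p = 0.589, adjusted p = 0.744). The corresponding control SMO medians were 2.58 for Ighj2, 3.01 for Ighj3 and 4.43 for Ighj4, whose CDR3 parts differ in length.

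Trimming was also read from the bases. Base by base, 99.7% of sequences carried the commonest base directly ahead of the tryptophan codon, 88.8% did so at 14 bases ahead of it, 72.9% at 15 bases and 43.0% at 18 bases, and beyond 19 bases the share stayed between 32.4% and 43.0%. The 19 bases printed in front of the motif were therefore compared. A mean of 15.1 of the 19 was kept without interruption in both groups (medians over libraries, exact p = 0.699), with a range of 13.2 to 15.5 in control SMO and 14.4 to 15.4 in LFPRLR SMO. With each distinct stretch ahead of the motif counted once, the medians were 14.6 and 14.9 bases (exact p = 0.132). All 19 bases were present in a median of 20.02% of sequences in control SMO and 22.1% in LFPRLR SMO (exact p = 0.699).

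**Figure D3:**
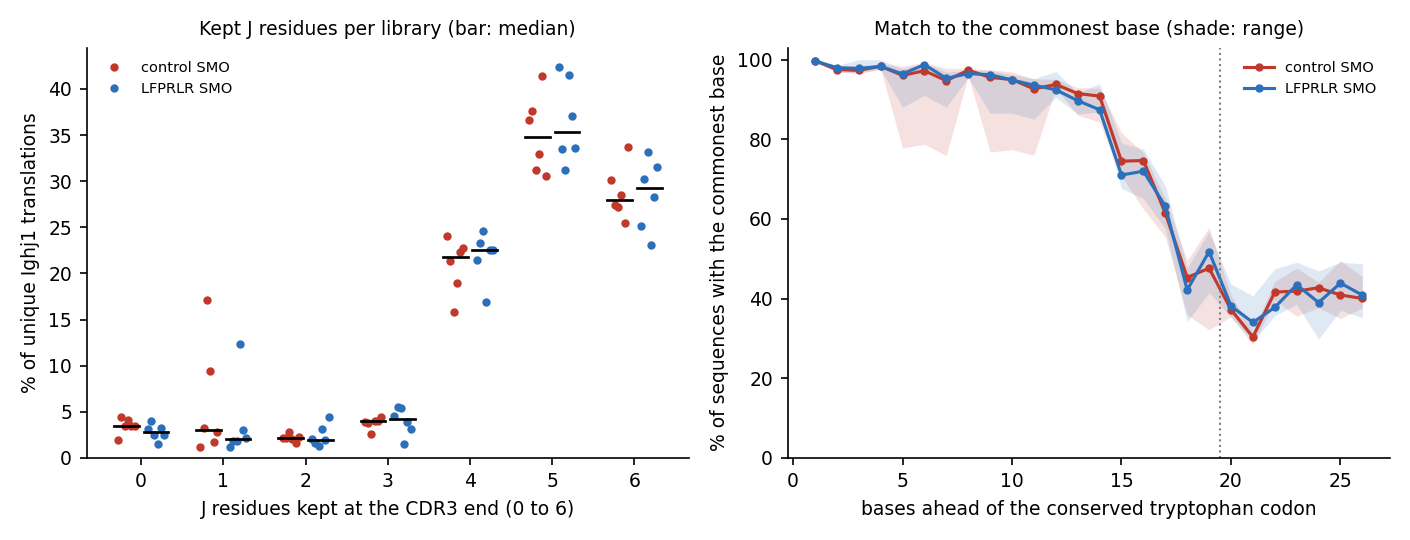
Percent of unique Ighj1 translations that kept 0 to 6 residues of the J part (left; points are libraries, bars group medians) and percent of sequences with the commonest base at each position ahead of the conserved tryptophan codon (right; lines are medians of 6 libraries, shades their ranges, the dotted line the limit of the 19 bases compared). Classes 4, 5 and 6 hold most translations in both groups, and the match to the commonest base falls from 88.8% at 14 bases to 43.0% at 18 bases over all libraries.

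Ighj1 CDR3s carried a slightly negative mean net charge, with arginine and lysine counted as positive and aspartate and glutamate as negative. Each unique CDR3 was counted once. Control SMO libraries ranged from -0.646 to -0.520 with a median of -0.539, and LFPRLR SMO libraries from -0.587 to -0.304 with a median of -0.521. The least negative value was that of LFPRLR SMO replicate 6, and the other libraries overlapped. The difference was 0.0187 (exact p = 0.240, adjusted p = 0.571). With each unique translation counted, so that CDR3s with many translations weigh more, it was 0.130 with an unadjusted exact p of 0.0260. Among the 6 single measures of Ighj1 (use by translations and by reads, length, kept residues, charge and concentration), 0 had an exact p under 0.05, against 8.33% of the 24 tests over all J segments and 0.00% after adjustment. A lone result among 24 tests could not have passed after adjustment, even at the smallest possible exact p of 0.00216.

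Of 20 amino acids, arginine and threonine differed between the groups in Ighj1 CDR3s before adjustment, and none did after it. Arginine made up 9%, 9.21%, 8.98%, 8.98%, 9.18% and 8.79% of the CDR3 residues in control SMO replicates 3, 4, 5, 7, 8 and 9. The LFPRLR SMO replicates 3 to 8 had arginine shares of 9.24%, 9.47%, 9.43%, 9.85%, 9.05% and 9.22%. Of the LFPRLR SMO libraries 5 lay above every control SMO library, and replicate 7 lay within the control range. The medians were 8.99% (SD 0.155) and 9.34% (SD 0.277), a difference of 0.348 percentage points (exact p = 0.00866, adjusted p = 0.346, above the control SMO median in 6 of 6 libraries). Threonine was lower in LFPRLR SMO, with a range of 1.64% to 1.85% and a median of 1.71%, than in control SMO, with a range of 1.75% to 1.89% and a median of 1.84% (exact p = 0.0152, adjusted p = 0.404, below the control SMO median in 5 of 6 libraries). With Ighj2, Ighj3 and Ighj4 the threonine differences were 0.0382, -0.0429 and 0.0343 percentage points (exact Mann–Whitney p = 0.485, 0.818 and 0.699). With Ighj1 the difference ahead of the kept J residues was -0.192 (exact p = 0.0931). The 2 amino acids with an exact p under 0.05 out of 20 stand against 5% of the 80 tests over all J segments, of which 0.00% passed after adjustment.

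The other amino acids of interest lay closer together. Cysteine, which had the next smallest p, had medians of 0.199% and 0.181% (exact p = 0.132). Tyrosine, which is abundant both in D segments and in the Ighj1 part, had medians of 18.7% and 18.98% (exact p = 0.818). Aspartate, which occurs in nearly every Ighj1 CDR3 through the J residues, had medians of 12.9% in both groups (exact p = 0.818).

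Ahead of the uninterrupted run of kept J residues, the control SMO median of arginine was 14.2% (range 13.8% to 14.4%). The LFPRLR SMO median was 14.9% (range 14.2% to 16.4%, exact Mann–Whitney p = 0.0152, adjusted p = 0.416). LFPRLR SMO replicate 7 was again the library within the control range. Arginine was the 1 amino acid of 20 with an exact p under 0.05 there, against 6.25% of 80 tests over all J segments and 0.00% after adjustment. The direction was not particular to Ighj1. Ahead of the kept J residues the LFPRLR SMO median of arginine was higher by 0.300 percentage points with Ighj2 (exact p = 0.132). It was higher by 0.498 with Ighj3 (exact p = 0.0260) and by 0.520 with Ighj4 (exact p = 0.180). In whole CDR3s these differences were 0.183, 0.402 and 0.136. Translations read once were 58.1% to 67.8% of Ighj1 translations in the 11 deep libraries, and among translations with at least 2 reads the arginine difference in whole CDR3s was 0.0563 percentage points (exact p = 0.937).

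**Figure D4:**
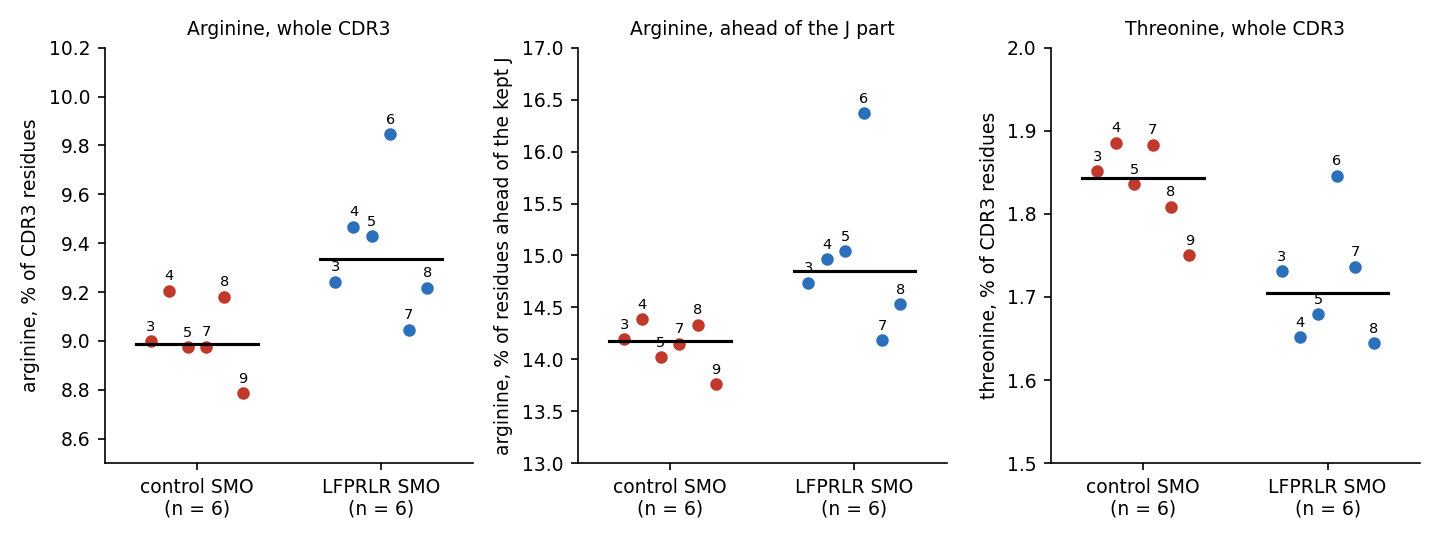
Arginine in whole Ighj1 CDR3s (left), arginine ahead of the kept J residues (middle) and threonine in whole Ighj1 CDR3s (right), as percent of residues over unique CDR3s, with 1 numbered point per library and a bar at the group median; axes do not start at 0. Arginine is higher in LFPRLR SMO (medians 8.99% and 9.34%), with replicate 7 inside the control range, and threonine lower (1.84% and 1.71%).

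Within libraries, the residues ahead of the kept J part also differed in composition between Ighj1 and the pool of Ighj2, Ighj3 and Ighj4. This is a description without a test, chosen after the values were seen. Arginine was 14.6% with Ighj1 and 13.7% with the pooled others (mean difference 0.849 percentage points, SD 0.496, higher in 12 of 12 libraries). It was not higher than with Ighj4 alone, whose medians were 14.5% in control SMO and 15.1% in LFPRLR SMO. The Ighj1 medians were 14.2% and 14.9%. Histidine was 1.64% against 1.15% and serine 9.28% against 8.54%, both higher in 12 of 12 libraries. Alanine, at 13.2% against 14.0%, and methionine, at 0.415% against 0.850%, were lower in 12 of 12 libraries. Single segments lay closer to Ighj1 than the pool. Serine with Ighj3 had medians of 9.28% in both groups, above 9.13% in control SMO and 9.17% in LFPRLR SMO with Ighj1. In the same order, methionine medians were 0.485% and 0.471% with Ighj4 and 0.475% and 0.408% with Ighj1. Alanine medians were 13.2% and 13.7% with Ighj3 and 13.1% and 13.2% with Ighj1. Since the kept part was matched only without interruption, single changed J residues count among the residues ahead of it.

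D segments were read through short residue motifs. DGYY of Ighd2-3 was found in a median of 3.13% of unique Ighj1 CDR3s in control SMO and 2.90% in LFPRLR SMO, YGNY of Ighd2-1 in 2.20% and 2.10%, NWD of Ighd4-1 in 1.06% and 1.01% and YDYD of Ighd2-4 in 0.961% and 0.768%. YYGSS of Ighd1-1 had medians of 0.0195% and 0%, and its highest value, 1.36%, was in control SMO. Of these 5 motifs 0 had an exact p under 0.05 in Ighj1, the smallest being 0.182, against 5% of 20 tests over all J segments and 0.00% after adjustment.

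The threonine form of the Ighj1 motif, printed above beside the alanine form, was concentrated in 2 control SMO libraries. Germline Ighj1 alleles with alanine or with threonine at this position of framework 4 are known among laboratory mouse strains. Of 396 Ighj1 translations with threonine, 254 were found in control SMO replicate 8 (5.09% of its Ighj1 translations) and 97 in control SMO replicate 3 (1.67%). The other 10 libraries held 2 to 8 each and 45 together. In LFPRLR SMO replicate 6 the share was 3.08%, from 2 of 65 translations.

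These threonine-form translations were many different rearrangements, most of them read once. The share read once was 76.0% in control SMO replicate 8 and 80.4% in replicate 3, against 67.4% and 65.8% in the alanine form. Threonine-form reads numbered 361 and 123. The threonine-form translations held 234 CDR3s in control SMO replicate 8 and 88 in replicate 3, of which 7 and 11 also occurred with alanine in the same library. Of their CDR3s 5 were shared between these 2 libraries, 2.14% of those in replicate 8 and 5.68% of those in replicate 3. Their mean length was 13.1 residues in replicate 8 and 12.6 in replicate 3, against 12.4 and 12.7 in the alanine form, and the mean number of kept J residues was 4.70 and 4.63 against 4.66 and 4.78.

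The 2 forms differed in the D segment motif found with them, which was set side by side after the values were seen. YYGSS of Ighd1-1 occurred in 39 of the 234 threonine-form CDR3s of control SMO replicate 8 (16.7%, 95% Wilson interval 12.4% to 22.0%) and in 7 of the 88 of replicate 3 (7.95%, interval 3.91% to 15.5%). It occurred in 0 of 2644 alanine-form CDR3s of replicate 8, which allows a share of up to 0.113%, and in 0 of 3689 of replicate 3, which allows up to 0.0813%. In the other 10 libraries it was found in 2 of 20062 alanine-form CDR3s and in 0 of 42 threonine-form CDR3s, which allows up to 7.14%. Many of these 42 also occurred with alanine in their library, from 0 of 2 (LFPRLR SMO replicate 6) to 3 of 3 (control SMO replicate 7). In control SMO replicates 8 and 3 these counts were 7 of 234 and 11 of 88. YDYD of Ighd2-4 was found in 4.70% of the threonine-form and 1.21% of the alanine-form CDR3s of control SMO replicate 8. In replicate 3 it was found in 3.41% (3 of 88, 95% Wilson interval 1.17% to 9.55%) and 1.17%. DGYY of Ighd2-3 went the other way, with 1.28% and 2.65% in replicate 8 and 1.14% and 3.47% in replicate 3. YGNY was found in 2.56% and 2.08% in replicate 8 and in 2.27% and 2.30% in replicate 3. For NWD these shares were 0.855% and 1.06%, and 1.14% and 0.922%. With other J segments, YYGSS was likewise highest in control SMO replicate 8, in 0.371% of CDR3s with Ighj2, 0.157% with Ighj3 and 0.229% with Ighj4, apart from 0.654% with Ighj2 in the few sequences of LFPRLR SMO replicate 6. CDR3s of 1 library are not independent of each other, and the source of the threonine form was not tested. With the alanine form alone, the Ighj1 differences between the groups kept their side of the threshold, except that 1 amino acid rather than 2 had an exact p under 0.05.

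**Figure D5:**
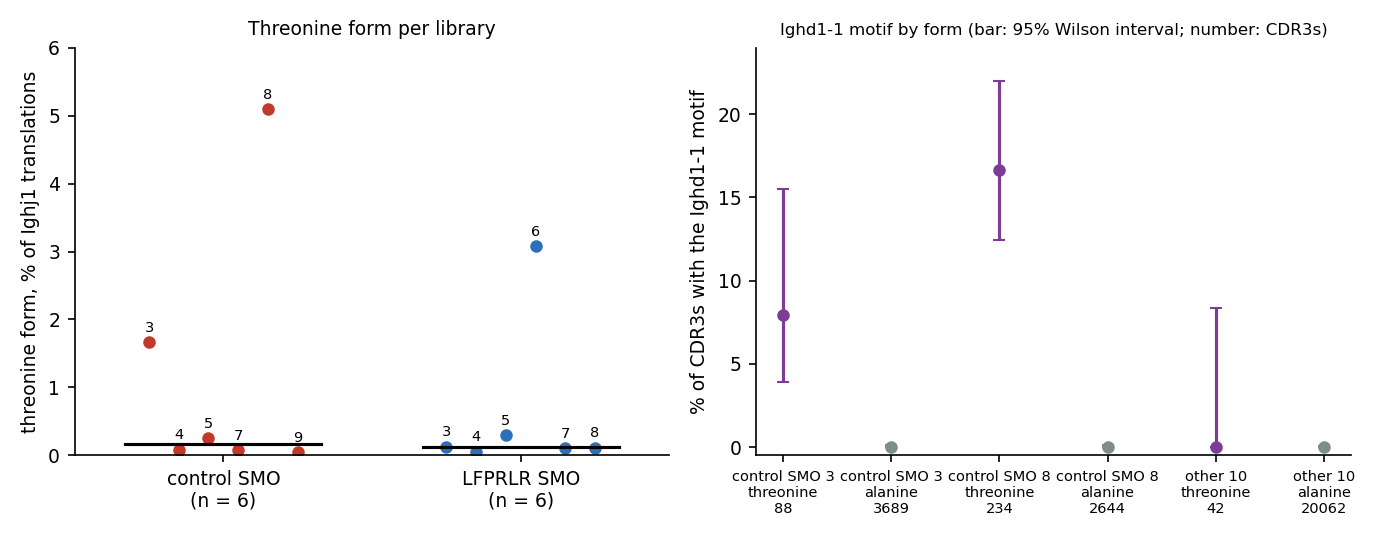
Threonine form as percent of unique Ighj1 translations per library (left; numbers are replicates, bars group medians) and percent of CDR3s with the Ighd1-1 motif by library and form (right; bars are 95% Wilson intervals, the number under each name is its count of CDR3s). The motif is found in 16.7% and 7.95% of the threonine-form CDR3s of control SMO replicates 8 and 3 and in 0 of their alanine-form CDR3s.

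A second variation lay behind the motif. After WGAGTTV or WGTGTTV, framework 4 ended in TVSS, the usual Ighj1 end, in 95.3% to 98.6% of the Ighj1 translations of a library. It ended in TVSA, the end that Ighj3 encodes and that the printed pair of sequences shows, in 1.10% to 1.87% of the translations of control SMO libraries and in 1.29% to 2.05% of those of LFPRLR SMO libraries. These ranges overlapped, and the share was of similar size in all 12 libraries, unlike that of the threonine form.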

How the data were processed

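For each of 12 libraries the authors deposited whole-number read counts of unique nucleotide sequences and of unique translations, not normalized. Merging, trimming and filtering tools are not given in the sources used here, and neither V gene calls nor HighV-QUEST output were used. Python 3.11.15, NumPy 2.4.6, SciPy 1.17.1, pandas 2.3.3 and matplotlib 3.10.9 were used. Translations were called by an exact match to a 7-residue J motif; of those without a stop codon, 91.0% to 95.7% per library were called, and the calls were tested on simulated data. Each unique translation counted once, and for composition, charge and D motifs each unique CDR3. Kept residues are the longest uninterrupted match of the CDR3 end to the J part. Groups of 6 were compared by two-sided exact Mann–Whitney U tests over 924 arrangements (smallest p 0.00216) with Benjamini-Hochberg adjustment within each family over all 4 J segments, and J segments within libraries by exact sign-flip tests. Members, lists and motifs were chosen with earlier results of these data known. Named were all classes of kept residues, the 3 amino acids with the smallest p plus arginine, aspartate and tyrosine, 5 D motifs, the commonest CDR3 of each library and the 5 with the highest mean share of Ighj1 reads, except 1 CDR3 that is not reported here. Alternatives covered weighting, read minimum, equal reads (130635 per library in 20 draws, without LFPRLR SMO replicate 6), motif and cysteine rules, library sets by Cμ end, averaged pairs, the replicate block and each library left out. J segment names follow RefSeq, of which no germline Ighj1 sequence was used here.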

Additional observations from a re-analysis of the deposited data

Results flagged for a closer look

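Of 32 groups of 6 libraries examined for a library far from the rest, 5 had one, and chance alone marks about 1 in 20 such groups. In 4 of them the library was LFPRLR SMO replicate 6, the library with 65 Ighj1 translations. Its Ighj1 share of unique translations (13.2%) was the highest of the LFPRLR SMO libraries, the nearest being 9.53%. Its mean number of kept J residues (4.37) was the lowest, the nearest being 4.64. Its share of Ighj1 translations with 1 kept J residue (12.3%) was the highest, the nearest being 3.04%. Its aspartate share in Ighj1 CDR3s (12%) was the lowest, the nearest being 12.8%. In control SMO replicate 5, where AIWLLLV held 43.9% of Ighj1 reads, 2.54% of Ighj1 translations kept 3 J residues, below the other control SMO libraries, of which the nearest had 3.79%.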

How the results depend on the processing

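The greater length of Ighj1 CDR3s kept its direction and its side of the threshold under 24 settings and was 0.735 residues (exact p = 0.0796) with the threonine form alone and 0.664 (exact p = 0.0493) weighted by reads; the threonine form is a setting in which 10 libraries held 2 to 8 translations. No Ighj1 amino acid passed the adjusted threshold under any of 28 settings, and without adjustment 0 to 3 did. The adjusted count is a weak check. In the main comparison alanine with Ighj3, at the smallest possible exact p of 0.00216, had an adjusted p of 0.173. In the families of 24, 25 and 52 tests too, a lone result at that p could not have passed. In the replicate block, with a smallest p of 0.0625, no amino acid could pass. Differences below are LFPRLR SMO minus control SMO medians; none passed the adjusted threshold in the main comparison. The share of unique translations (percentage points) was 0.0434 with 3 pairs averaged, 0.352 as a difference in means, 0.208 with each unique CDR3 counted once and, in settings chosen after the data were seen, 0.0454 without the commonest Ighj1 CDR3 of each library and 0.304 without its 10 commonest CDR3s. With those 10 left out, the share of reads was 0.151 and the share of reads in the 10 commonest Ighj1 CDR3s 3.13. CDR3 length was -0.0370 residues with 3 pairs averaged, -0.103 with each unique CDR3 counted once and -0.0447 within library sets. Kept residues were -0.0610 weighted by reads, and charge was 0.130 (exact p = 0.0260) with each unique translation counted. With the threonine form alone, length was -0.5002, kept residues -0.256, charge -0.135, arginine -0.269 and aspartate 0.303.

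Leaving out 1 library gave -0.00993 to 0.202 residues for length, -2.37e-05 to 0.0910 for kept residues, -18.0 to -11.0 percentage points for the 10 commonest CDR3s, -0.594 to -0.102 for the share of unique translations, -3.85 to -3.24 for the share of reads, -0.0530 to 0.0253 for aspartate and 0.255 to 0.442 for arginine. Arginine was 0.0563 with at least 2 reads (exact p = 0.937) and 0.778 weighted by reads (exact p = 0.0649). Aspartate was 0.00391 at equal reads, 0.716 weighted by reads and 0.0245 within library sets. Tyrosine was -0.0942 with 3 pairs averaged, -0.0832 with at least 2 reads and -0.0123 as a difference in means, and the share with all 6 residues kept was -0.658 with 3 pairs averaged, -0.501 without the commonest Ighj1 CDR3 and -0.139 as a difference in means. The causes were not tested. Replicate numbers shared by 5 pairs of libraries did not pair them (correlations of -0.864 to -0.0135 between deviations). In the replicate block, whose smallest p is 0.0625, arginine was 0.243 (exact p = 0.0625), aspartate 0.122 and the share of unique translations -0.134 (exact p = 0.312). Leaving out undetermined residues was not run, since the translated tables hold none. Depth limits LFPRLR SMO replicate 6 and the threonine form.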
